A study of Mus musculus with 26 samples.

Results

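Myosin heavy and light chains were measured with 7 probe sets of 5 genes in the hearts of mouse embryos at embryonic day 12.5. The members were every probe set that the platform annotation assigns to Myh6, Myh7, Myl1, Myl2, Myl3 or Myl4, out of 13069 probe sets and 6137 named genes on both array types. Of the 6 listed genes 5 were found, with 4 probe sets on the A array (Myh6, Myl1, Myl2 and Myl4) and 3 on the B array (Myh6, Myl2 and Myl3). The annotation assigned 0 probe sets to Myh7, which is not analysed here. In this mouse line the NK2-specific domain has been deleted from Nkx2.5, a DNA-binding homeodomain protein that regulates heart genes. Per the labels, 4 hearts were null (3, 4, 8 and N3), 4 were het (5, 6, 12 and N2) and 5 were wt (1, 2, 7, 9 and N1), all without a further treatment or allele in the labels. Total RNA of each entire heart was put on an A and a B array. The labels give no strain, litter or sex and do not say whether embryos were pooled, so p-values measure only the spread between these samples.

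Myosin is the motor of the sarcomere: a heavy chain holds the ATPase head, and each head binds an essential and a regulatory light chain. In the mouse embryo Myh6 encodes the alpha heavy chain, which is strongest in the atria, while Myh7 encodes the beta heavy chain of the fetal ventricle. Myl2 encodes the ventricular regulatory light chain, Myl3 the ventricular and slow skeletal essential light chain, Myl4 the atrial and embryonic essential light chain, and Myl1 the essential light chains of fast skeletal muscle. Myl2 is known in the mouse as a gene whose ventricular level depends on Nkx2.5. In RNA of whole hearts, fewer cells of a type and less RNA per cell cannot be told apart.

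In the mouse genome build GRCm38.p6, Myh6 lies at chr14:54941921-54968017, Myl1 at chr1:66924295-66947932, Myl2 at chr5:122092724-122113473, Myl3 at chr9:110763678-110769802 and Myl4 at chr11:104546017-104587215. RefSeq promoter windows of 300 bases, 250 before and 50 after an annotated start, were found for 5 of 5 genes, with 1 window per gene except 2 for Myl2. They are shown for the heavy chain, for both light chains that differed by heart number below, and for Myl3, which had the largest null minus wt difference as deposited. The windows lie at chr14:54966558-54966857 on the minus strand (Myh6), chr1:66945007-66945306 on the minus strand (Myl1), chr5:122092474-122092773 on the plus strand (the first of the Myl2 windows) and chr9:110763428-110763727 on the plus strand (Myl3). Each is written 5′ to 3′ along its gene, with the matches of the motifs searched in capitals.
Myh6: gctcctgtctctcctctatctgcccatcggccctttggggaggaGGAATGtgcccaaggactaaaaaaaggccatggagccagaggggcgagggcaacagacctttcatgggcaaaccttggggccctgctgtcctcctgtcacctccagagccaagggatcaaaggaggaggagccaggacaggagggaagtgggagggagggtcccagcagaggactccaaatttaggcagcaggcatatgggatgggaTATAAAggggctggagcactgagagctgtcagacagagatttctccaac
Myl1: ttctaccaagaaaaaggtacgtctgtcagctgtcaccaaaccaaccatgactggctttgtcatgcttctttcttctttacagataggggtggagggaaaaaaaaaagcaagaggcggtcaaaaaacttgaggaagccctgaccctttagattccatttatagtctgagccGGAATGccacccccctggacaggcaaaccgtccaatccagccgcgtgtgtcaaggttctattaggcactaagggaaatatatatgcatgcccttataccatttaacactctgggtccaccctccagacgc
Myl2: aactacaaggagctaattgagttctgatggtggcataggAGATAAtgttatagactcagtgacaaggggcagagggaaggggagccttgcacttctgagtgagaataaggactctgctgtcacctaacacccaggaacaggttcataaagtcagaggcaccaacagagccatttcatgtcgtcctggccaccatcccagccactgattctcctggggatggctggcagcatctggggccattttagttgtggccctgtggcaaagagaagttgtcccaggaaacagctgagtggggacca
Myl3: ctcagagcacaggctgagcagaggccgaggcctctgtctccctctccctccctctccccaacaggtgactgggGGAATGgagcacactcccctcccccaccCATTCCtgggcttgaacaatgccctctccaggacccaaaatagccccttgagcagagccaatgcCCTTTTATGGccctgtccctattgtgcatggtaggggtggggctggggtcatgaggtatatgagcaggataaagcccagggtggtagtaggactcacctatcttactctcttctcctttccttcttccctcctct

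The capitals mark the MCAT element that TEAD factors bind (CATTCC or its complement GGAATG), the CArG box of serum response factor, the GATA letters AGATAA and the TATA box letters TATAAA. The MCAT element was present in the windows of 3 of 5 genes, Myh6, Myl1 and Myl3, against 14.7% of 32851 promoter windows of the same length. Myl3 held 2 MCAT elements and a CArG box, CCTTTTATGG, a motif that 1.63% of windows hold. Myl2 held AGATAA in its first window, a match found in 11.2% of windows, and the second Myl2 window and that of Myl4 held 0 matches. TATAAA, searched on the gene's strand only (the others on both), lay in the Myh6 window and in 8.32% of all windows. In Myh6 it began at base 2 after the annotated start, not before the start. The Nkx2.5 binding letters TNAAGTG, present in 11.5% of windows, and the MEF2 site, in 3.19%, were found in 0 of the 6 member windows, which says only that these letters are not in these bases. The windows of Myh6, Myl1 and Myl4 and the second Myl2 window lie inside the gene spans given above, not at their 5′ ends. No motif letters were shared by 2 matches.

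Each heart gave 1 deposited intensity per probe set, on a linear scale after scaling that was checked only on arrays without blank cells. Other arrays had blank cells, so the 7 probe sets had values in 9 to 13 hearts. All 7 were above the floor (2 times the noise, 887 on A and 1373 on B) in every heart with a value, and all 7 were tested. The tissue label was checked against other genes: of 12 cardiomyocyte markers 6 were annotated, and all 7 of their probe sets were above the floor on every array with a value. Of the probe sets of the members, 5 have names ending in _f_at and 1 in _s_at, which mark probes that can match related transcripts, so Myh6 signal may include Myh7 and Myl1 signal may include related light chains; the arrays cannot tell these apart. Only the Myl3 probe set lacks such a name. On the B arrays, het heart 12, wt heart 7 and wt heart 9 had a low bright end: the 99th percentile of their intensities was 36090, 36784 and 27485, against 53246 to 110619 on the other 10 B arrays and 29555 to 43541 on the A arrays.

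The deposited intensity of the alpha heavy chain Myh6 was highest in null hearts on the A array. It had an intensity of 58957 in null heart 3, 52199 in null heart 4 and 54794 in null heart N3, then 46139 in het heart 5 and 35388 in het heart 12, and 52178, 44409, 45428 and 46083 in wt hearts 2, 7, 9 and N1. All 3 null hearts with a value were above both het hearts and all 4 wt hearts with a value. Null heart 4 was only just above wt heart 2. Null heart 8, het hearts 6 and N2 and wt heart 1 had no value of this probe set. The means were 55317 ± 3409 (SD, n = 3) in null, 40763 ± 7602 (n = 2) in het and 47025 ± 3504 (n = 4) in wt hearts, an order of null, wt and het in which het and wt overlapped. On the log2 scale null minus wt was 0.24 ± 0.15 (SE; adjusted p = 0.9999 in limma, exact permutation p = 0.0571), and null minus het was 0.45 ± 0.18 (unadjusted p = 0.0279, adjusted p = 0.774 in limma). Null minus wt turned to -0.12 with quantile scaling and -0.0079 with cyclic loess, and was 0.12 with heart number as a block.

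On the B array the order of Myh6 was the same but its groups overlapped. Myh6 had 49175, 77431 and 55774 in null hearts 4, 8 and N3, then 52420, 57685, 28512 and 55137 in het hearts 5, 6, 12 and N2, and 69172, 51270 and 33458 in wt hearts 1, 2 and 7. Null heart 8 was the highest and het heart 12 the lowest of the 10 hearts, and wt heart 7 was the next lowest. The means were 60793 ± 14782 (SD, n = 3) in null, 48438 ± 13457 (n = 4) in het and 51300 ± 17857 (n = 3) in wt hearts. Their null minus wt difference was 0.28 ± 0.36 on the log2 scale (SE; adjusted p = 0.9999 in limma), smaller than its error. Over 10 alternative settings it ranged between 0.0007 and 0.33.

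The ventricular regulatory light chain Myl2 overlapped between genotypes on both arrays. On A it had 57030, 72536 and 46041 in null hearts 3, 4 and N3, then 50709 and 37165 in het hearts 5 and 12, and 64971, 41648, 45518 and 41989 in wt hearts 2, 7, 9 and N1. Hearts numbered 1 to 6 held the top 4 of these 9 values, whichever their genotype. On B it had 95301, 80453 and 56040 in null hearts 4, 8 and N3, then 68952, 70944, 30999 and 62669 in het hearts 5, 6, 12 and N2, and 148507, 74764, 35354, 26153 and 49548 in wt hearts 1, 2, 7, 9 and N1. Both the highest and the lowest B value were in wt hearts, 5.68-fold apart. For Myl2, null minus wt was 0.27 ± 0.21 on A and 0.45 ± 0.48 on B on the log2 scale (SE; adjusted p = 0.9999 for both in limma). With quantile scaling the A value turned to -0.10, and with cyclic loess the B value turned to -0.038. The B value turned to -0.12 once the B arrays with the low bright end (het heart 12, wt hearts 7 and 9) were left out.

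The ventricular essential light chain Myl3, measured in all 13 hearts, had the largest null minus wt difference of the members as deposited, an order that did not hold without null heart 8, without wt heart 1 or without the 3 B arrays of low bright end. It had 58201, 49212, 86415 and 45359 in null hearts 3, 4, 8 and N3, then 44145, 60868, 20120 and 58248 in het hearts 5, 6, 12 and N2, and 61217, 49594, 29263, 23286 and 39453 in wt hearts 1, 2, 7, 9 and N1. Null heart 8 was well above every other heart, while wt hearts 7 and 9 and het heart 12 were the 3 lowest. The means were 59797 ± 18543 (SD, n = 4) in null, 45845 ± 18656 (n = 4) in het and 40563 ± 15293 (n = 5) in wt hearts, and the groups overlapped. The null hearts exceeded the wt hearts by 0.60 ± 0.35 on the log2 scale, 1.51-fold (SE; adjusted p = 0.9999 in limma; exact permutation p = 0.143). The difference was 0.24 with quantile scaling, 0.21 with cyclic loess, 0.23 without those 3 B arrays, 0.37 without mostly blank arrays and 0.41 without null heart 8.

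Heart number split the Myl3 values further. Among hearts 1 to 6, 2 null against 2 wt hearts, null minus wt was -0.04, among hearts 7 to 12 (null heart 8 against wt hearts 7 and 9) it was 1.73, and between null heart N3 and wt heart N1 it was 0.20. The B probe sets of Myl2 and Myh6 gave 1.40 and 1.21 among hearts 7 to 12 and -0.14 and -0.28 among hearts 1 to 6. Each value set 1 null heart against 2 wt hearts, except Myh6 among hearts 7 to 12, with 1 against 1. The change of the null minus wt difference with heart number, tested as an interaction with hearts 7 to 12 and N as 1 group, was 1.11 ± 0.62 for Myl3, 1.05 ± 0.68 for Myl2 on B and 1.25 ± 0.63 for Myh6 on B (SE; adjusted p = 0.999 for each in limma), and 0 of 7 members and 0% of the 4494 probe sets passed that test. Wt hearts 7 and 9 are those whose B arrays had the low bright end given above, and null heart 8 had a 99th percentile of 94065; the part of the array range in these values was not tested.

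The atrial and embryonic essential light chain Myl4 was measured on A only. It had 71503, 94976 and 65020 in null hearts 3, 4 and N3, then 63383 and 56045 in het hearts 5 and 12, and 74257, 61930, 60230 and 57432 in wt hearts 2, 7, 9 and N1. The null hearts were above both het hearts and overlapped with the wt hearts through wt heart 2. The means were 77166 ± 15761 (SD, n = 3) in null, 59714 ± 5189 (n = 2) in het and 63462 ± 7431 (n = 4) in wt hearts. On the log2 scale the difference was 0.27 ± 0.18 for null minus wt and 0.35 ± 0.21 for null minus het (SE; adjusted p = 0.9999 and 0.839 in limma). With quantile scaling these turned to -0.13 and -0.22, and with cyclic loess they were -0.023 and 0.047.

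The fast skeletal light chain Myl1 was the 1 member with a null minus wt difference below 0 as deposited. It had 15097, 14266, 5568 and 10512 in null hearts 3, 4, 8 and N3, then 15222 and 7176 in het hearts 5 and 12, and 13098, 10555, 10170 and 13057 in wt hearts 2, 7, 9 and N1. The highest null heart, 3, was 2.71-fold above the lowest, 8. The means were 11361 ± 4346 (SD, n = 4) in null, 11199 ± 5690 (n = 2) in het and 11720 ± 1575 (n = 4) in wt hearts. Null minus wt was -0.14 ± 0.29 on the log2 scale (SE; adjusted p = 0.9999 in limma). With heart number (1 to 6, 7 to 12, N) as a block it was -0.37 ± 0.17 (unadjusted p = 0.0486, adjusted p = 0.999 in limma), and without null heart 8 it turned to 0.17.

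**Figure D1:**
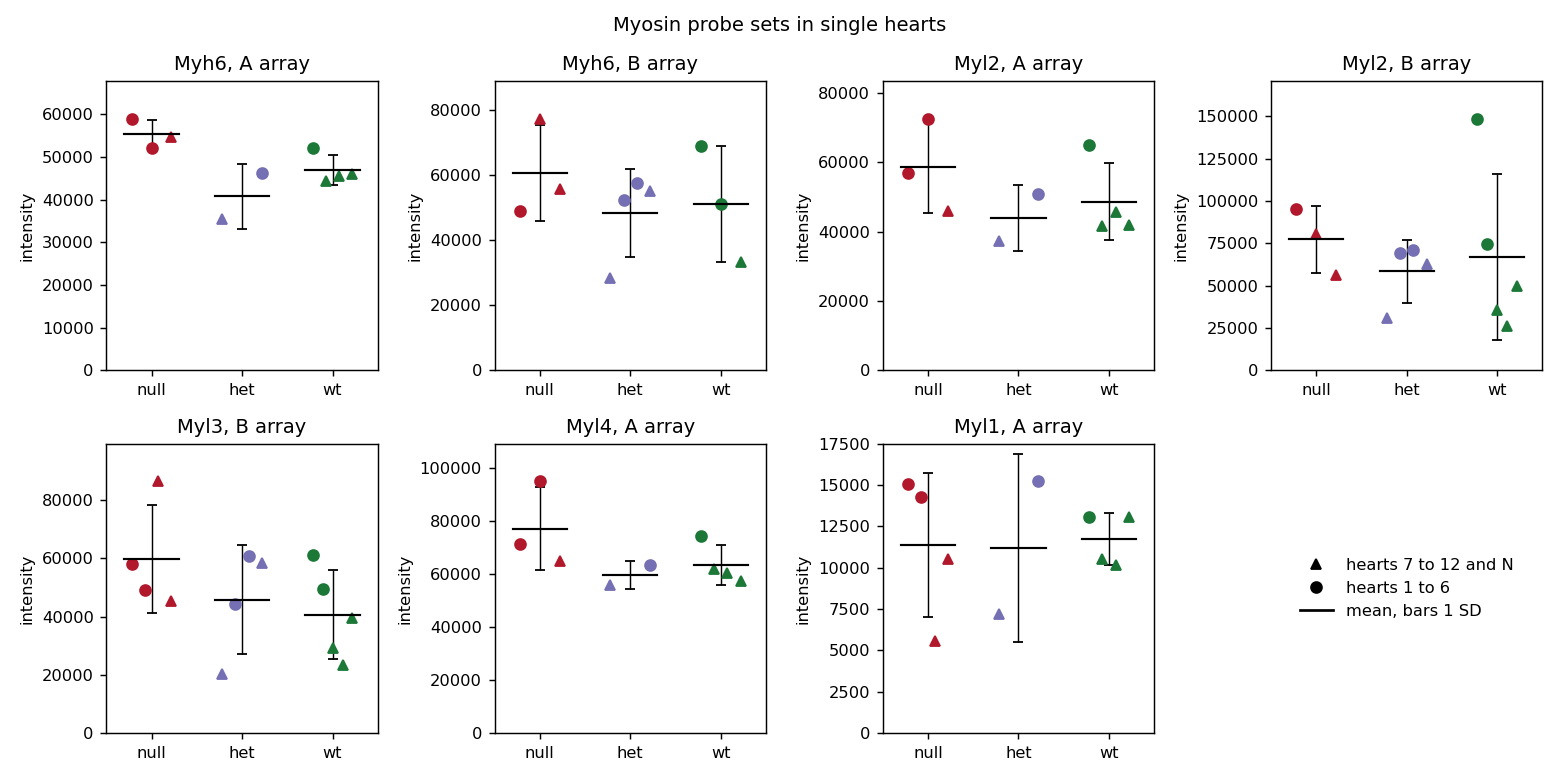
Deposited intensity (linear axes from 0) of each myosin probe set in single hearts, by genotype, with null left, het in the middle and wt right; horizontal lines are means, bars are 1 SD, triangles are hearts 7 to 12 and N, and circles are hearts 1 to 6. Null hearts lie above all wt hearts only for Myh6 on the A array, and in the Myl1 and Myl2 panels of the A array every circle lies above every triangle.

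Both Myh6 and Myl2 had a probe set on each array, so their heart order could be set side by side. For Myh6, 6 hearts had both values: null heart N3 ranked 1 of 6 and het heart 12 ranked 6 of 6 on both arrays, while null heart 4 ranked 2 on A and 4 on B. For Myl2, 8 hearts had both values, and null heart 4, wt heart 2, het heart 5 and null heart N3 ranked 1 to 4 in that order on both arrays. Wt heart 9 differed most, ranking 5 on A and 8 on B, and its B array had the lowest bright end.

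**Figure D2:**
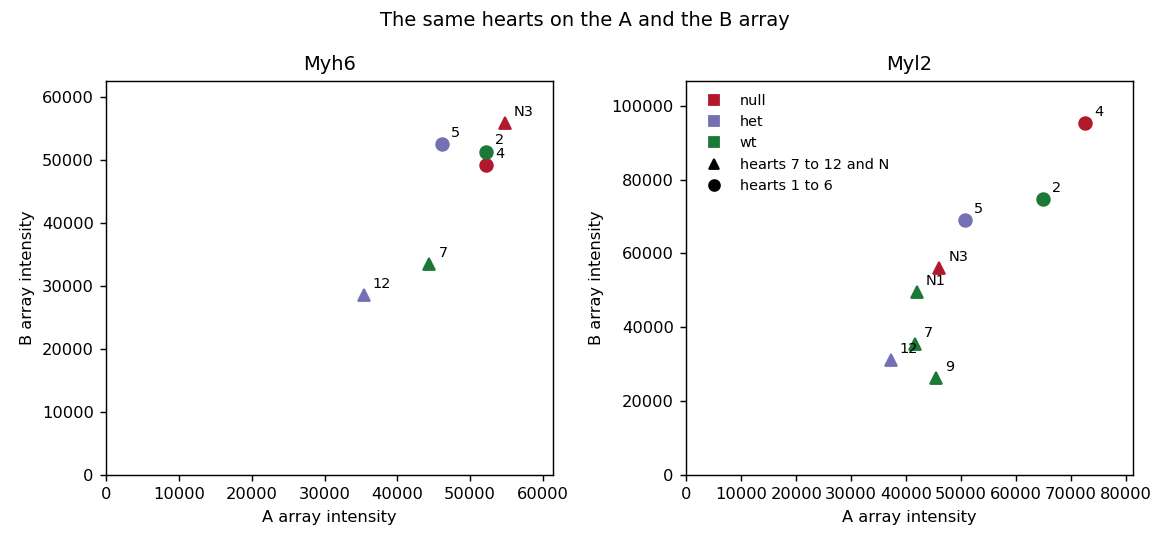
Intensity on the B array (vertical) against the A array (horizontal) for the 6 hearts with both values of Myh6 and the 8 hearts with both values of Myl2; labels are heart numbers, colour is genotype and shape is heart number group. The Myl2 hearts 4, 2 and 5 stand highest on both arrays, and wt heart 9 lies lower on B than its A value would place it among its neighbours.

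Across the genotype comparisons, 0 of the 7 myosin probe sets passed an adjusted p of 0.05. In null against wt hearts 0.0223% of the 4494 tested probe sets passed (1 probe set), and at an unadjusted p under 0.05 the counts were 0 of 7 members and 108 of 4494 probe sets (2.4%). In het against wt hearts 0% passed, with 0 of 7 members and 152 of 4494 (3.38%) at the unadjusted threshold. In null against het hearts 0% passed, with 1 of 7 members (Myh6 on A) and 260 of 4494 (5.79%) at the unadjusted threshold. Groups did not overlap for 1 of 7 members in null against wt hearts (2.27% of all probe sets), for 0 of 7 in het against wt hearts (5.5%) and for 2 of 7, Myh6 and Myl4 on A, in null against het hearts (7.7%). Those 2 had only 3 null and 2 het hearts, and small groups are apart more easily by chance. The 7.7% covers probe sets of all group sizes, so the 2 shares are not like for like. With heart number as a block 0 of 7 members passed in each comparison, against 0.089% of all probe sets in null against wt, 0% in het against wt and 0.0223% in null against het hearts.

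The differences that did not pass were also counted by sign. Null minus wt was above 0 for 6 of 7 members with a median of 0.27 on the log2 scale, against 48.6% and -0.006 over all tested probe sets, but with quantile scaling it was above 0 for 3 of 7 with a median of -0.10 and with cyclic loess for 3 of 7 with a median of -0.01. Among the 160 probe sets with a mean log2 intensity above 15, where 6 of the members lie, the median was 0.26 and 94.4% were above 0. Null minus het was above 0 for 7 of 7 members (53.4% of all probe sets and 88.8% of the bright ones), with a median of 0.41 against 0.02 over all and 0.26 over the bright probe sets. With quantile scaling it was above 0 for 5 of 7 with a median of 0.074, and the median was 0.15 with cyclic loess and 0.16 without the 3 B arrays of low bright end. Beside these, the cardiomyocyte markers had a median null minus wt of 0.38 (7 of 7 above 0, 0 called) and the erythroid markers 0.45 (7 of 7 above 0, 0 called). The endothelial and endocardial markers had -0.29 (0 of 7 above 0, 0 called) and the ventricular markers -0.05 (1 of 3 above 0, 0 called). Of 8 listed atrial markers only Cited1 and Gja5 were tested, with a median of -0.47 (0 of 2 above 0, 0 called). Gja5 was above the floor in 7 of 10 hearts. The part of these markers in the myosin values was not tested. Het minus wt was above 0 for 2 of 7 members (47.3% of all probe sets) with a median of -0.08, against -0.01 over all probe sets, and it was above 0 for 3 of 7 with quantile scaling and 0 of 7 with cyclic loess.

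**Figure D3:**
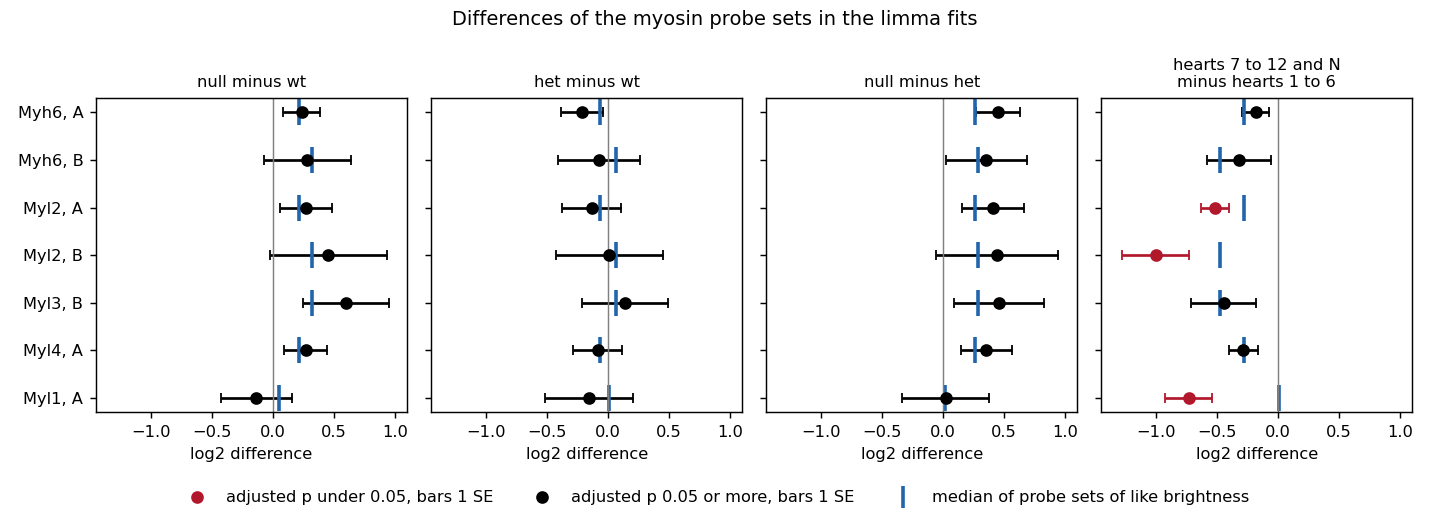
Log2 differences of the 7 myosin probe sets (rows, named by gene and array) in 4 comparisons, with bars of 1 SE; blue ticks are the medians of tested probe sets of like brightness on the same array, and red points have an adjusted p under 0.05 in limma. The 3 genotype comparisons hold no red point, and the comparison by heart number holds 3, Myl1 on A and Myl2 on both arrays.

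The hearts also differed by their numbers. The labels do not say what the numbers stand for or that the N hearts belong with hearts 7 to 12. Hearts 7 to 12 and N were compared with hearts 1 to 6, with genotype in the limma model. This comparison was made because earlier results of these data showed such a split. As the grouping came from these same data, its p-values are descriptive. Exact permutation tests by heart number left genotype out. Of the 7 members 3 were lower in hearts 7 to 12 and N at an adjusted p of 0.05, the Myl1 probe set and both Myl2 probe sets, against 7.14% of all tested probe sets in either direction and 3.27% lower. At an unadjusted p under 0.05 the counts were 4 of 7 members, Myl4 being the fourth, and 24.7% of all probe sets. Groups did not overlap for 2 of 7 members, both lower, against 6.88% of all probe sets and 3.63% lower. All 7 differences were below 0 as deposited, where 52.1% of all probe sets and 6.88% of the 160 bright ones were above 0. The median was -0.45 over the members, 0.01 over all and -0.35 over the bright probe sets, and Myh6 turned above 0 on both arrays with quantile scaling and with cyclic loess.

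Myl1 averaged 9506 ± 2687 (SD, n = 6) in hearts 7 to 12 and N and 14421 ± 978 (n = 4) in hearts 1 to 6. The highest of the first group, wt heart N1 at 13057, lay just under the lowest of the second, wt heart 2 at 13098. The log2 difference was -0.73 ± 0.19 (SE, adjusted p = 0.038 in limma). The exact permutation p, in a test that left genotype out, was 0.019. The difference was below 0 within each genotype, at -0.94 in null, -1.08 in het and -0.23 in wt hearts. With hearts 7 to 12 and N first, these set 2 against 2 null, 1 against 1 het and 3 against 1 wt hearts. Of 181 A probe sets with a mean log2 intensity of 13 to 14, like Myl1, 3 had a lower difference, and their median was 0.01. The adjusted p ranged from 0.0227 to 0.0974 when 1 heart was left out (not fitted without het heart 5 or 12) and was 0.0664 with quantile scaling, 0.344 with no filter and 0.0564 with no variance trend; the call was lost without null heart 3, null heart 4, null heart 8 or wt heart 7.

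Skeletal muscle markers are given beside Myl1. Of 16 skeletal markers 15 were annotated, and 10 of them, including Myod1, Myf5, Myf6, Myh3, Myh8 and Mylpf, were above the floor on 0 arrays. The 6 A probe sets of that list with values in the same hearts summed to intensities of 1925 to 12879 in hearts 7 to 12 and N, against 4334 to 8460 in hearts 1 to 6, and the 12 on B summed to 12860 to 25956 against 9354 to 14561. Of 4 tested probe sets 1 passed: Myog, which encodes the muscle differentiation factor myogenin, was lower in hearts 7 to 12 and N (log2 difference -0.88 ± 0.14, SE; adjusted p = 0.00525 in limma). Only 5 of its 10 values were above the floor and the others were raised to it, so this difference and its SE depend on the floor. The list had 2 of 4 above 0 with a median of 0.14, and both probe sets of Ckm, the muscle creatine kinase, were above 0 (0.63 and 0.75; adjusted p = 0.158 and 0.089 in limma). The part of these markers in the Myl1 values was not tested.

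Myl2 was lower in hearts 7 to 12 and N on both arrays. On A it averaged 42472 ± 3574 (SD, n = 5) against 61311 ± 9489 (n = 4) in hearts 1 to 6, with no overlap, and the log2 difference was -0.52 ± 0.12 (SE; adjusted p = 0.0251 in limma; exact permutation p = 0.00794, the smallest that 5 against 4 hearts can give). On B it averaged 48745 ± 19398 (n = 7) against 91694 ± 33448 (n = 5), and the difference was -1.002 ± 0.27 (SE; adjusted p = 0.044 in limma; exact permutation p = 0.0152). Both differences were lower than most of like brightness: 7 of 65 bright A probe sets and 7 of 95 bright B probe sets were lower still, and the medians were -0.28 and -0.47. Within genotypes the difference was -0.48 in null, -0.45 in het and -0.59 in wt hearts on A, and -0.51, -0.67 and -1.56 in the same order on B. With hearts 7 to 12 and N first, the A values set 1 against 2 null, 1 against 1 het and 3 against 1 wt hearts. The B values set 2 against 1, 2 against 2 and 3 against 2 in the same order. The call on B was lost when any 1 of 11 of its 12 hearts was left out, with an adjusted p of up to 0.0953, and without the 3 B arrays whose bright end was low (-0.58, adjusted p = 0.205). The call on A was lost without null heart 4, wt heart 2 or wt heart 7, with an adjusted p of up to 0.138, and with quantile scaling (-0.23, adjusted p = 0.286), as it was on B (-0.40, adjusted p = 0.139).

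Marker lists were summed in the same hearts. The cardiomyocyte list summed to intensities of 47177 to 73841 in hearts 7 to 12 and N against 58137 to 79954 in hearts 1 to 6 on A (2 probe sets) and to 95499 to 332167 against 225078 to 429891 on B (4 probe sets), overlapping on both, and 1 of its 7 tested probe sets, Tnnc1, which encodes cardiac troponin C, was called, lower. The endothelial and endocardial list summed to 7572 to 8591 against 5481 to 7718 on A (5 probe sets) and to 22255 to 34797 against 15786 to 22604 on B (3 probe sets), overlapping on both, and 2 of its 7 tested probe sets, Tie1 and Eng, were called, higher. The erythroid list summed to 71770 to 294284 against 156182 to 442824 on B (7 probe sets), also overlapping, and 1 of its 7 tested probe sets, Alas2, was called, higher, while 2 of 7 were above 0 with a median log2 difference of -0.42. Of 4 tested epicardial probe sets 1, Wt1, was called, higher, and 2 of 4 were above 0 with a median of 0.0004. The ventricular list had 0 calls of 3 tested. The part of these markers in the Myl2 values was not tested.

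The other members did not pass this test. Myl4 averaged 60131 ± 3575 (SD, n = 5) in hearts 7 to 12 and N and 76030 ± 13448 (n = 4) in hearts 1 to 6, a log2 difference of -0.29 ± 0.12 (SE; adjusted p = 0.161 in limma). Myl3 differed by -0.45 ± 0.27 (adjusted p = 0.317 in limma) and by 0.007 without those 3 B arrays. Myh6 differed by -0.19 ± 0.11 on A and -0.32 ± 0.26 on B (adjusted p = 0.325 and 0.478 in limma).

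**Figure D4:**
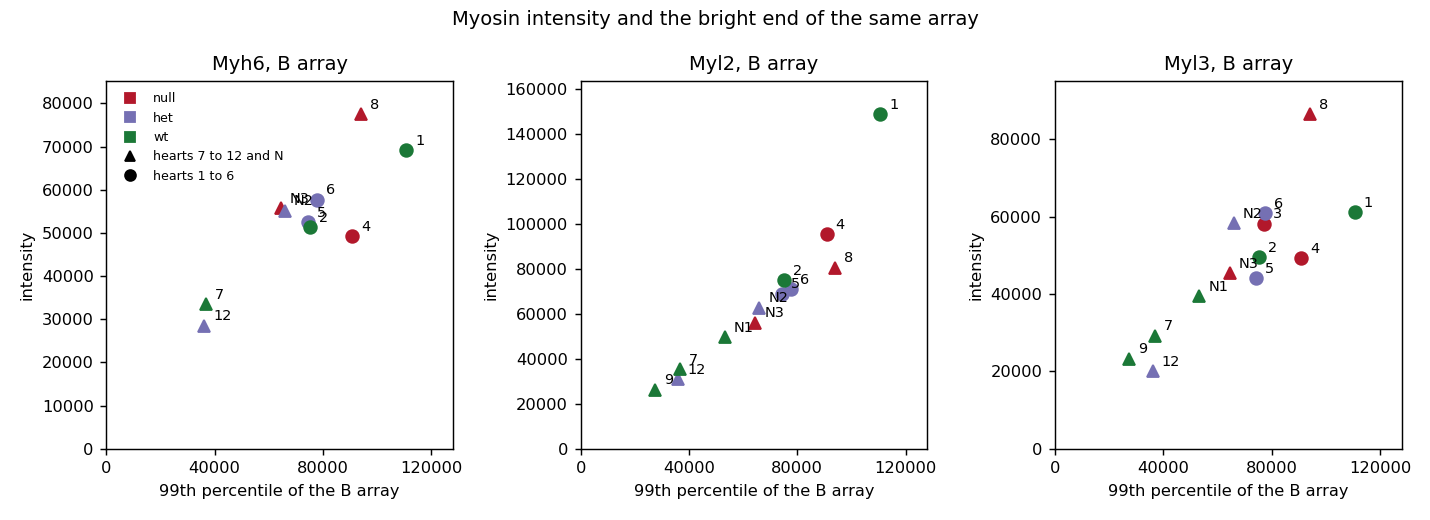
Intensity of the 3 B array members in each heart against the 99th percentile of the same B array over probe sets without blanks, with heart numbers as labels, colour for genotype and shape for heart number group. Het heart 12 and wt heart 7 lie at the low end of both axes in each panel, joined by wt heart 9 for Myl2 and Myl3, and wt heart 1 has the highest percentile.

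Ratios of members within a heart do not depend on the linear scaling of its array. None of the 27 genotype tests of 9 ratios had an exact permutation p under 0.05, with adjusted p = 1 for each. The ratio of Myl2 to Myl4 on A was -0.40 ± 0.09 (log2, SD, n = 3) in null hearts, -0.46 ± 0.19 (n = 2) in het hearts and -0.41 ± 0.16 (n = 4) in wt hearts, a null minus wt difference of 0.0009 with exact permutation p = 1. With 2 het hearts on A the smallest exact p is 0.0667 against 4 wt hearts and 0.1 against 3 null hearts, and for the 2 B ratios with Myh6, 3 null against 3 wt hearts, it is 0.1. So 14 of the 27 tests could not pass.

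By heart number 4 of the 9 ratios, each with Myl2, had an exact permutation p under 0.05 as deposited, and 0 had an adjusted p under 0.05. Genotype was left out of these ratio tests. The ratio of Myh6 to Myl2 on B was -0.09 ± 0.07 (log2, SD, n = 5) in hearts 7 to 12 and N and -0.66 ± 0.35 (n = 5) in hearts 1 to 6, with no overlap (difference 0.57, exact permutation p = 0.00794, adjusted p = 0.0682). On A the same ratio was 0.08 ± 0.12 (n = 5) against -0.22 ± 0.23 (n = 4), with overlap (difference 0.30, exact permutation p = 0.0397, adjusted p = 0.0893). The ratio of Myl2 to Myl4 on A was -0.50 ± 0.08 (n = 5) against -0.31 ± 0.08 (n = 4), with no overlap (difference -0.20, exact permutation p = 0.0159, adjusted p = 0.0682). The ratio of Myl2 to Myl3 on B was 0.24 ± 0.22 (n = 7) against 0.74 ± 0.40 (n = 5), with overlap (difference -0.49, exact permutation p = 0.0227, adjusted p = 0.0682). The Myl2 values entered each of these ratios, so they are not separate results. With quantile scaling Myl2 to Myl3 on B was -0.083 (exact permutation p = 0.644) and Myl2 to Myl4 on A -0.19 (exact permutation p = 0.0952). Ratios without Myl2 then had a p under 0.05, Myh6 to Myl1 at 0.62 and Myl1 to Myl4 at -0.47 (exact permutation p = 0.0159 and 0.0397), and with cyclic loess these were 0.53 and -0.49 (exact permutation p = 0.0159 and 0.0317). With cyclic loess Myl2 to Myl3 on B had an exact permutation p of 0.0707. Without N hearts the exact permutation p of Myh6 to Myl2 was 0.171 on A and 0.0536 on B.

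**Figure D5:**
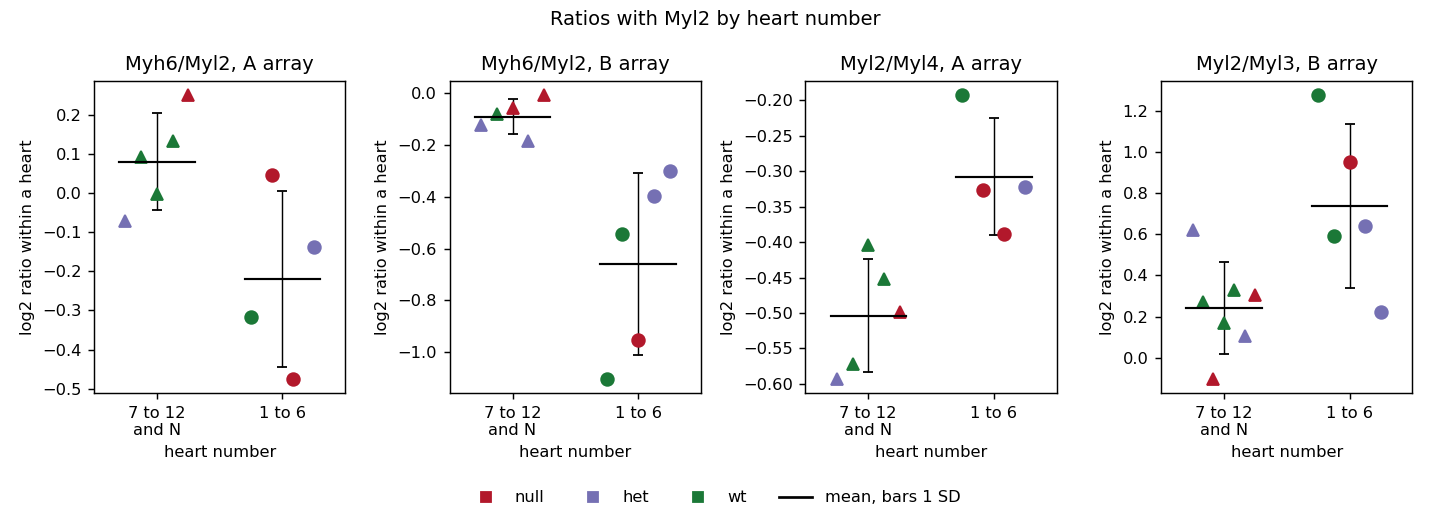
Log2 ratios within single hearts for the 4 ratios that involve Myl2 and had an exact p under 0.05 by heart number as deposited, with hearts 7 to 12 and N left and hearts 1 to 6 right; lines are means, bars are 1 SD, colour is genotype, and the vertical axes do not start at 0. The groups do not overlap for Myh6 to Myl2 on B and for Myl2 to Myl4 on A.

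Other myosin genes were mostly dark. Of 21 listed heavy chains, light chains and regulators 9 were annotated with 13 probe sets, and 7 of them, the skeletal chains Myh3, Myh4, Myh8 and Mylpf, the smooth muscle chain Myh11, and Myh14 and the kinase Mylk, were above the floor on 0 arrays. The 3 tested probe sets, 1 of the regulatory light chain Myl12b and 2 of the nonmuscle heavy chain Myh9, gave 0 calls in any of the 4 comparisons. Null minus wt was 0.08 ± 0.13 for Myl12b and -0.18 ± 0.18 and -0.01 ± 0.32 for the Myh9 probe sets on the log2 scale (SE).

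Other sarcomere genes gave 0 calls by genotype as well. Of 34 listed genes 19 were annotated, and 17 probe sets of 15 genes were tested, with a median null minus wt of 0.05 on the log2 scale against -0.006 over all probe sets. By smallest p in null against wt hearts they were Tnni2, the fast skeletal troponin inhibitor (1.83 ± 0.33, SE; adjusted p = 0.113 in limma), the skeletal actin Acta1 (-0.73 ± 0.21), the tropomyosin Tpm2 (-0.75 ± 0.26) and Fhl2 (-0.69 ± 0.28), the last 3 with an adjusted p of 0.9999. By heart number 1 of the 17, the troponin Tnnc1 of cardiac and slow muscle, was lower in hearts 7 to 12 and N (-0.65 ± 0.15; adjusted p = 0.0271 in limma).

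The probe sets whose pattern over hearts was most like that of a member were mostly transcripts of other classes. Over 12 hearts, Myl2 on B correlated with the cardiac actin Actc1 (Pearson r = 0.98), the imprinted RNA H19 (0.98) and Ppia (0.98) among 426 candidates. Over 13 hearts, Myl3 correlated with the ribosomal protein genes Rplp0 (0.94) and Rpl37a (0.93) and with Hba-a1 (0.90) among 355 candidates, and over 10 hearts Myh6 on B correlated with Myl3 (0.97) among 668. On A, over 9 hearts and 2425 candidates, the closest was Qdpr for Myh6 (0.95), Brk1 for Myl2 (0.99) and Atp5g1 for Myl4 (0.96), and over 10 hearts and 2057 candidates Ublcp1 for Myl1 (0.92). These values describe likeness only: all points share the arrays, their bright end and the split by heart number.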

How the data were processed

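The authors deposited 1 intensity per probe set and array on a linear scale; their software is not given in the sources used here. The negative values show that some signal had been subtracted, of a kind not given in these sources. On arrays without blanks the trimmed mean was about 1500, so these arrays had been scaled, which was not checked on arrays with blanks. Blank cells were missing values. Intensities below 2 times the noise (the root mean square of negative values, 443.5 on A and 686.4 on B) were raised to that floor, and log2 was taken. Probe sets with at least 4 arrays above the floor and 2 values per genotype were tested (4494: 2771 on A, 1723 on B) with limma 3.58.1 in R 4.3.3, 1 fit per array type to all hearts with a variance trend, two-sided, adjusted by Benjamini-Hochberg over both types. Single values and within-heart log2 ratios were tested by exact two-sided permutation, ratios adjusted over their family. By heart number these exact tests left genotype out. Gene IDs were looked up in RefSeq GRCm38.p6 (5551 of 5560 matched on A, 1993 of 2001 on B). Every member is named. From the other lists the text names up to 4 genes by smallest p in null against wt and any past the threshold, and as likeness the closest named probe sets of the same array. The members, lists, heart-number comparison and tests were chosen with earlier results of these data known. Alternatives were quantile scaling, cyclic loess, other floors, no filter, no variance trend, heart-number blocks, without mostly blank arrays, without N hearts, without each heart and, added after seeing the data, without the 3 B arrays of lowest 99th percentile. The number of arrays limits the precision.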

Additional observations from a re-analysis of the deposited data

Results flagged for a closer look

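Among 21 groups of 4 or more hearts searched, 3 held a heart whose gap to the nearest other heart exceeded the critical value of Dixon's test for its group size; chance alone flags about 1 group in 20. Het heart 12 was low for Myh6 on B (log2 intensity 14.8, gap 0.864 of the range of 4 het hearts) and for Myl2 on B (14.92, gap 0.85 of the range). Its B array was among the 3 with a low bright end, and its A values of Myh6, Myl2 and Myl4 were the lowest of the hearts measured there. Wt heart N1 was high for the log2 ratio of Myl1 to Myl4 on A (-2.14, gap 0.853 of the range of 4 wt hearts).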

How the results depend on the processing

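No paired analysis was possible because no heart number occurs in more than one genotype. By genotype, 0 of 7 members were called under all 10 alternative settings. With 1 heart left out 0 were called too, but without het heart 5 or het heart 12 only the 3 B members could be fitted. The number of probe sets called in null against wt was 0 with quantile scaling, no filter, without mostly blank arrays, without N hearts and without the 3 B arrays of low bright end, 2 with a floor at 1 times the noise, 4 with heart number as a block and 0 to 3 with 1 heart left out. It was 1 with no filter in het against wt, and 1 with no filter or with heart number as a block in null against het. By heart number, the probe sets called were 135 with quantile scaling, 38 with no filter, 192 without mostly blank arrays, 181 without those B arrays and 103 to 342 with 1 heart left out. The members called were 0 with quantile scaling or no filter, 1 with no variance trend and 0 to 3 with 1 heart left out (0 of 3 fitted without het heart 5 or 12). The call of Myl1 was lost under those 3 settings, that of Myl2 on A under them, cyclic loess and without N hearts, and that of Myl2 on B with quantile scaling, no filter, without mostly blank arrays and without the B arrays of low bright end. Where a call or sign was lost the cause was not tested.

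Signs turned as follows on the log2 scale. In null minus wt, quantile scaling gave -0.13 for Myl4, -0.12 for Myh6 on A and -0.10 for Myl2 on A, cyclic loess gave -0.023 for Myl4, -0.0079 for Myh6 on A and -0.038 for Myl2 on B, and leaving out the B arrays of low bright end gave -0.12 for Myl2 on B. Myl1 ranged from -0.31 to 0.17 with 1 heart left out. In het minus wt, quantile scaling gave 0.095 for Myl4. Myl2 on B was -0.19 with cyclic loess, -0.14 with the block, -0.40 without mostly blank arrays, -0.086 without N hearts and -0.28 without the B arrays of low bright end, and Myl3 was -0.033 with cyclic loess, -0.083 without mostly blank arrays and -0.0043 without N hearts. With 1 heart left out, het minus wt ranged from -0.20 to 0.013 for Myl2 on A, -0.26 to 0.37 for Myl2 on B, -0.35 to 0.17 for Myh6 on B and -0.039 to 0.50 for Myl3. In null minus het, Myl1 was -0.059 with quantile scaling, -0.12 with the block and -0.15 to 0.33 with 1 heart left out, and Myl4 was -0.22 with quantile scaling. By heart number, Myh6 was 0.14 (A) and 0.053 (B) with quantile scaling, 0.019 (A) and 0.087 (B) with cyclic loess, and on B 0.21 without the B arrays of low bright end, where Myl3 was 0.0074.

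Among ratios, Myl1 to Myl2 in null minus wt was 0.20 with quantile scaling, 0.13 with cyclic loess, 0.019 without N hearts and -0.20 to 0.019 with 1 heart left out. In het minus wt it was 0.097 without N hearts and -0.11 to 0.097 with 1 heart left out, and in null minus het 0.22, 0.17 (quantile scaling, cyclic loess) and -0.18 to 0.030. By heart number it was -0.28 with quantile scaling, -0.24 with cyclic loess, -0.094 without N hearts and -0.084 to 0.065 with 1 heart left out. The ratio of Myl1 to Myl4 in null minus wt was 0.23, 0.17 and 0.051 (quantile scaling, cyclic loess, without N hearts) and -0.24 to 0.0048 with 1 heart left out, in het minus wt 0.029 without N hearts and -0.11 to 0.029, and in null minus het 0.46, 0.28 and 0.022 and -0.17 to 0.075. With 1 heart left out, Myl2 to Myl4 ranged from -0.055 to 0.072 (null minus wt) and -0.11 to 0.019 (het minus wt), and by heart number Myh6 to Myl4 ranged from -0.0077 to 0.19 and Myh6 to Myl3 from -0.015 to 0.15, with -0.058 without the B arrays of low bright end. The ratios with an exact permutation p under 0.05 by heart number were 2 without N hearts and 2 to 4 with 1 heart left out. Signal over background does not limit the members, all of which were above the floor.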
